A study of Mus musculus with 8 samples.

Results

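The genes described here code for the machinery of the secretory and endosomal pathways: signal recognition particle and translocon subunits, vesicle coats, SNAREs, tethers, clathrin and its adaptors, and the complexes that sort cargo at endosomes. They were chosen by symbol alone, as the genes of the deposited table whose names begin with the field's stems for these families (Sec, Cop, Vps, Snx, Ap1 to Ap5, Clt, Stx, Vamp, Snap, Exoc, Trappc, Cog, Golg, Tmed, Lman, Srp, Ssr, Spcs, Picalm, Eea1 and Dnm), and the rule uses no measured value, although the families were picked with earlier results of these data known. The table held 3160 genes and 75 of them matched. Sec14l1, a lipid-binding protein named after a yeast secretion gene, was matched by its stem and is no part of a coat or tether. All the samples came from the E14Tg2A mouse embryonic stem cell line of strain 129/Ola, for which the labels name no transgene or knockout. Embryonic stem (ES) cells were kept in serum with the cytokine LIF (0 days in vitro), and epiblast-like aggregates (ELA) were the same cells after 2 days as floating aggregates in a chemically defined minimal medium without serum or LIF. In each of the 4 groups there were 2 libraries, so that 8 libraries in all measured total RNA of the cleared lysate (input) and RNA recovered from it with an antibody to the endogenous large-subunit protein Rpl10a (Rpl10a-IP) at each stage, after cycloheximide had stalled the ribosomes in every sample. The labels do not say that replicates came from separate cultures, so p-values measure only the spread between these libraries.

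Proteins bound for the cell surface, the lysosome or the outside enter the endoplasmic reticulum (ER) when the signal recognition particle brings the translating ribosome to the translocon. COPII-coated vesicles carry them to the Golgi, COPI-coated vesicles return escaped proteins, long tethers and SNAREs dock and fuse each vesicle, and clathrin with its adaptors takes cargo back in from the surface. Endosomes then recycle it through retromer and the sorting nexins, or pass it to the lysosome with the ESCRT, CORVET and HOPS complexes. Pluripotent cells use these routes for growth-factor signalling and adhesion.

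A level is given below as a normalised count, which is the reads of a gene divided by the size factor of its library (trimmed mean of M-values over all 3160 genes). A ribosome enrichment is the Rpl10a-IP level over the input level at 1 stage, as log2, and the change in ribosome enrichment is that of ELA minus that of ES. A shift shared by all genes is removed by the scaling, so each value says how a gene moved against the rest. Libraries held 3898414 to 23483388 reads over the 3160 genes in 6 of 8 cases, but only 159587 and 410192 in ELA input, where the median member had 26 and 66 reads and the extremes were 3 reads (Trappc4) and 467 reads (Cltc). In ELA input replicate 1, which the study's methods set aside for low complexity, 1 read was worth 27.2 normalised counts. The 5 measured markers of naive ES cells were Nanog, Klf4, Tfcp2l1, Tdgf1 and Fgf4. They summed to 18279 and 18724 in ES input against 1903 and 1813 in ELA input. On the log2 scale the core pluripotency marker Pou5f1 (Oct4) fell by 1.18 in total RNA and by 1.73 on ribosomes. The paper describes Oct4 as only marginally affected at this step, by RT-PCR. Dnmt3b, the only 1 of 5 listed epiblast markers in the table, rose by 2.62 in total RNA. The listed markers of primitive endoderm and trophectoderm were not analysed here. Nes, a neural progenitor gene, also rose, by 2.51, and its part in the changes below was not tested.

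From ES to ELA the trafficking genes spread less than all genes in both total and ribosome-bound RNA. In total RNA 20 of 75 rose from ES to ELA and 27 fell (limma, adjusted p under 0.05), against 34.5% and 35.8% of all genes tested, in a table that had been filtered for small replicate spread. A change of more than 2-fold was seen for 1 gene in each direction, where all genes gave 10.5% higher and 7.88% lower. With the authors' own size factors 13 rose and 29 fell. In bulk RNA, fewer cells that express a gene and less RNA per cell cannot be told apart. The standard deviation of the log2 change over the 75 genes was 0.52 in total RNA, against 0.85 over all genes, and 0.73 against 1.04 in ribosome-bound RNA. In ribosome-bound RNA 33 rose and 32 fell (background 41.1% and 42.3%), with 6 and 7 past 2-fold (15.3% and 14.4%). The ribosome enrichment in ES was called higher for 25 members and lower for 10 (background 19.5% and 20%), always by less than 2-fold (0% and 0.222% of all genes passed it). In ELA 36 were higher and 23 lower (36.8% and 37.2%), of which 12 and 7 passed 2-fold (9.43% and 11.9%). The change in ribosome enrichment was upward for 28 and downward for 22 (28.4% and 27.7%), with 4 and 6 past 2-fold (6.33% and 9.05%), and its median was 0.14 against 0.01 over all genes. Without ELA input replicate 1 these last counts were 30 and 23. The values are given by family below.

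**Figure D1:**
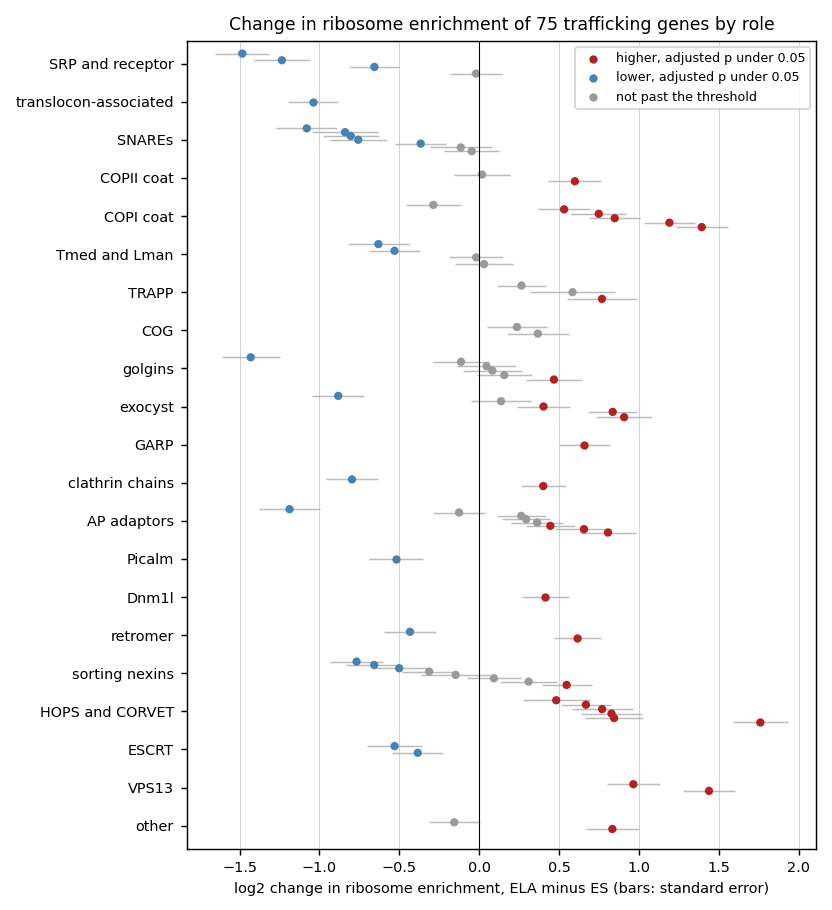
Log2 change in ribosome enrichment from ES to ELA (x axis) for the 75 genes, in rows by role, with the standard error as a bar; red and blue points passed an adjusted p of 0.05. The 6 HOPS and CORVET genes lie at 0.48 or above, 5 of the 6 COPI genes at 0.53 or above, and all 7 SNAREs below 0.

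Per kilobase of transcript, mean normalised counts in ES input ran from 44.4 for Vps8 to 2004 for Snx5, a sorting nexin of the retromer pathway. The clathrin chains Clta and Cltc followed at 1612 and 1037, then Srp19 at 918 and Picalm at 820.5. On the same scale in the ELA pull-down, Snx5, Cltc and Vps35 stood highest, at 1532, 1274 and 1095.

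In ES several genes of endosomal sorting were enriched on ribosomes. Of the 8 sorting nexins 5 were above input (19.5% of all genes were above and 20% below), namely Snx6 (0.62 ± 0.10), Snx10 (0.51), Snx18 (0.47), Snx2 (0.42) and Snx4 (0.37), and none was below. Both retromer subunits were above input, Vps26a by 0.49 ± 0.09 and Vps35 by 0.48 ± 0.09. The pull-down of Vps35 gave normalised counts of 3106 and 3326 over inputs of 2242 and 2378, with no overlap. In the other direction, 3 of 7 SNAREs were below input in ES (background 20%), Stx16 (-0.46), Stx6 (-0.43) and Stx3 (-0.35), as were Srp19 (-0.43), Tmed10, a p24 cargo receptor (-0.39), and Copz1 (-0.38). With each library corrected for the coding length and GC content of its genes (described below) Stx6 and Copz1 lost these calls, at -0.21 and -0.15. The number of members below input in ES was 6 without ES Rpl10a-IP replicate 2, 5 without replicate 1 and 6 with all 8 libraries.

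Total RNA rose for 6 of the 7 SNAREs among the members (background 34.5%). SNAREs are the membrane proteins whose helices zip together to fuse a vesicle with its target, and the 7 had a median log2 change of 0.61. Stx3, a syntaxin of the plasma membrane, had normalised counts of 1038 and 993 in ES input, 766 and 828 in ES Rpl10a-IP, 2175 and 1887 in ELA input and 1197 and 1269.8 in ELA Rpl10a-IP. Stx7, a syntaxin of late endosomes, had 173 and 198 in ES input, 182 and 208 in ES Rpl10a-IP, 299 and 392 in ELA input and 202 and 199 in ELA Rpl10a-IP. For each of these genes every ELA input library lay above both ES input libraries, and the log2 changes were 1.00 ± 0.11 (SE) for Stx3 and 0.88 ± 0.15 for Stx7, with adjusted p of 1.2e-09 and 2.5e-06. Stx16, which acts at the trans-Golgi network, rose by 0.75, Stx6 by 0.61, Vamp3, a recycling-endosome SNARE, by 0.54 and Snap23, its plasma-membrane partner, by 0.40. Only the endosomal Stx12 missed the threshold among these 7, at -0.06. The same 6 were past the threshold without ELA input replicate 1 and with the size factors that the authors had used, and 5 of them after the correction for coding length and GC content, where Snap23 had 0.18 (adjusted p 0.15). Of 5 SNAREs whose symbols lack the stems, named after their values were seen, Bet1 rose by 1.28, Vti1b fell by 0.84, and Gosr1, Gosr2 and Ykt6 missed the threshold at 0.13, 0.06 and -0.08.

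The highest total RNA change of all 75 genes was that of Vps37a, a subunit of the ESCRT-I complex that sorts ubiquitinated receptors for degradation. Its normalised counts were 309.8 and 341 in ES input, 316 and 303 in ES Rpl10a-IP, 761 and 742 in ELA input and 472 and 521 in ELA Rpl10a-IP. Both ELA input libraries stood at more than 2-fold the level of the ES libraries, and the fitted change was 1.21 ± 0.12, a 2.31-fold rise (adjusted p 1.2e-10), while its ESCRT partner Vps4b, the ATPase that takes the complexes apart, had -0.04. At the low end stood Trappc4, a TRAPP tether subunit, with 183 and 235 in ES input, 153 and 179 in ES Rpl10a-IP, 81.6 and 53 in ELA input and 90.3 and 69.3 in ELA Rpl10a-IP. Its fitted change of -1.64 rests on 3 and 5 reads in ELA input, and it was -1.95 without replicate 1 of that group and -1.34 without replicate 2.

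Clathrin, retromer and some of the genes that work with them fell in total RNA, as did 27 of the 75 members and 35.8% of all genes. Ap2m1, the cargo-binding medium chain of the plasma-membrane adaptor AP-2, had 1588 and 1463 in ES input, 1416 and 1322 in ES Rpl10a-IP, 761 and 901 in ELA input and 976 and 936 in ELA Rpl10a-IP. Vps41, a subunit of the HOPS tether of late endosomes and lysosomes, had 1242 and 1263 in ES input, 1651 and 1601 in ES Rpl10a-IP, 653 and 742 in ELA input and 1447 and 1424 in ELA Rpl10a-IP. In these genes every ELA input library lay below every ES input library, with changes of -0.88 ± 0.11 and -0.85 ± 0.11. Both clathrin chains fell in total RNA, Clta by 0.57 and Cltc by 0.48 on the log2 scale. With the correction for coding length and GC content Clta had -0.23 and missed the threshold (adjusted p 0.059), and Cltc had -0.75. Both retromer subunits measured, Vps26a and Vps35, fell by 0.65 and 0.50. Picalm, which helps clathrin assemble at the membrane, fell by 0.55, and Snx5 and Snx2, sorting nexins that work with retromer, by 0.76 and 0.54. The large AP-2 chains Ap2a1 and Ap2a2 missed the threshold at -0.17 and -0.08. In the other direction the nexins Snx1 and Snx18 rose by 0.42 and 0.30, where Snx1 had only 0.17 without ELA input replicate 1. The adaptor chains Ap1g1 and Ap4e1 rose by 0.48 and 0.37. Of 6 partner genes of clathrin-mediated uptake outside the stems, 3 rose and 2 fell.

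The COPI coat gained ribosome enrichment in ELA. Of its 6 measured subunits 5 rose and none fell, with a family median of 0.80, where 28.4% of all genes rose, and 62.3% of those with 2500 or more coding bases, as the 5 have. Copg1, a gamma subunit of the coat (chr6:87887819-87913595, GRCm38.p6), had normalised counts of 1038 and 1005 in ES input, 911 and 918 in ES Rpl10a-IP, 544 and 647 in ELA input and 1329 and 1466 in ELA Rpl10a-IP. Copa, the alpha subunit (chr1:172082529-172122332), had 1279 and 1301 in ES input, 1238 and 1459 in ES Rpl10a-IP, 1359 and 1166 in ELA input and 2964 and 3028 in ELA Rpl10a-IP. In ES the pull-down did not pass the threshold against input for either gene (-0.16 and 0.06), whereas in ELA each pull-down library lay far above each input library. Enrichment changed by 1.39 ± 0.16 for Copg1 (2.63-fold, adjusted p 1.3e-08) and by 1.19 ± 0.16 for Copa (2.28-fold, adjusted p 1.5e-07). The beta-prime subunit Copb2 gained 0.85, the paralog Copg2 0.75 and the beta subunit Copb1 0.53. Copz1, the small zeta subunit, stood apart at -0.29 (adjusted p 0.15), and without ELA input replicate 1 it passed the threshold downward (0.047). In total RNA Copg1 fell by 0.78 and Copb2 by 0.49, and the other 4 did not pass the threshold.

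All 6 genes grouped as HOPS and CORVET tethers, which dock endosomes with each other and with lysosomes, gained ribosome enrichment, again with a median of 0.80 (background 28.4%). Of these Vps8, Vps16, Vps39 and Vps41 have 2500 or more coding bases, a class in which 62.3% of all genes gained. With the correction for coding length and GC content Vps8 and Vps33b lost their calls. Vps16, a core subunit of both complexes (chr2:130424320-130444269), showed the highest change of the 75 genes. Its normalised counts were 403 and 382 in ES input, 354 and 375 in ES Rpl10a-IP, 272 and 286 in ELA input and 862 and 894 in ELA Rpl10a-IP. The ES pull-down libraries lay just below the ES input libraries, and the ELA pull-down was 3.14-fold above the ELA input libraries, which held 10 and 27 reads of this gene. The change was 1.76 ± 0.17, 3.39-fold (adjusted p 4.2e-10). Vps33a, the SNARE-binding partner of Vps16, gained 0.84, Vps39 and Vps41, which give HOPS its endosome contacts, 0.83 and 0.67, and Vps8, which serves CORVET, 0.77. Vps33b, the paralog that works outside HOPS, was nearest to the threshold at 0.48 (adjusted p 0.048), and it missed it without ELA input replicate 1 (adjusted p 0.17), leaving 5 of 6.

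Promoter letters are shown for 8 members because lysosomal genes are known to share a palindrome, TCACGTGA, through which the factor TFEB acts, and secretory genes an element, TGACGTGG, of the unfolded protein response. RefSeq promoter windows (GRCm38.p6, 250 bases before to 50 after the start) were at hand for 60 of the 75 genes, as 72 windows of 300 bases, and 12 letter patterns were searched in them. TCACGTGA was found on either strand in 7 of the 72 windows (9.72%), those of 6 genes, against 2.48% of the windows of the table's genes and 0.974% of all windows. TGACGTGG was found in 2 of 72 (2.78%, against 0.986% and 0.676%), both of them COPI genes. The shorter core CACGTG, which lies inside the palindrome, was in 15 of the 72 windows (20.8%, against 11.6% and 7.15%). The endoplasmic reticulum stress element (CCAAT, a gap of 9 letters, CCACG) and the cAMP element TGACGTCA were in none of the 72 windows. Each 30-base stretch below reads 5′ to 3′ on the gene's strand, with the match in capitals; in Copb1 and Copb2 the capitals are the reverse complement of TGACGTGG.
Vps16: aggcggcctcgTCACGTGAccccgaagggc
Vps33a: ggaTCACGTGAacgtcccgTCACGTGAcgc
Vps26a: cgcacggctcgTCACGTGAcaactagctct
Stx6: ggcgatctgggTCACGTGAgcctgagtgcg
Picalm: ggcagggcgcgTCACGTGAcgcggcgggcc
Sec23ip: gaccgaggctgTCACGTGAtaggcttgggt
Copb1: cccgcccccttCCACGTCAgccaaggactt
Copb2: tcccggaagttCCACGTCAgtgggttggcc
The stretches lie at chr2:130424290-130424319 (plus strand) for Vps16, chr5:123573018-123573047 (minus) for Vps33a, chr10:62486970-62486999 (minus) for Vps26a, chr1:155158606-155158635 (plus) for Stx6, chr7:90130010-90130039 (plus) for Picalm, chr7:128744805-128744834 (plus) for Sec23ip, chr7:114254690-114254719 (minus) for Copb1 and chr9:98563713-98563742 (plus) for Copb2. Vps33a carried 2 copies of the palindrome within 1 stretch. Picalm also had 2 matches, of which its stretch shows 1. The palindrome of Vps16 began 19 bases before the start of the gene. Of the 6 genes with the palindrome 5 fell in total RNA, by 0.49 (Vps16) to 0.66 (Vps33a), against 35.8% of all genes, and Stx6 rose by 0.61. Their changes in ribosome enrichment ran from -0.52 (Picalm) to 1.76 (Vps16). A match is a description of letters and no measure of binding.

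Tethers and scaffolds elsewhere on the route were mixed. The exocyst, which holds secretory vesicles at the plasma membrane, had 3 of 5 subunits that gained ribosome enrichment and 1 that lost it (background 28.4% and 27.7%). Of the 3, Exoc2 and Exoc4 have 2500 or more coding bases, a class in which 62.3% of all genes gained. Exoc2 (chr13:30789516-30974096) had normalised counts of 259.6 and 259 in ES input, 391 and 372 in ES Rpl10a-IP, 299 and 297 in ELA input and 796 and 850.1 in ELA Rpl10a-IP. Its pull-down libraries were above input at both stages, with the gap wider in ELA, and the change was 0.91 ± 0.17 (adjusted p 4.2e-05). Exoc4 gained 0.84 and had the highest rise of the 75 genes in ribosome-bound RNA, 1.48 ± 0.09, from 1011 and 1046 in the ES pull-down to 2762 and 2999.7 in that of ELA. Exoc6b gained 0.40, Exoc6 had 0.14 (adjusted p 0.56), and Exoc5 lost 0.88. Outside the exocyst, Vps54 of the GARP tether, which receives vesicles at the trans-Golgi network, gained 0.66, and Sec23ip, a phospholipase-related partner of the COPII coat, gained 0.83. Of the COPII coat itself Sec31a, from the outer cage, gained 0.60, whereas the cargo-binding Sec24a had 0.02 (adjusted p 0.94). In TRAPP, Trappc10 gained 0.77 and Trappc8 and Trappc4 missed the threshold at 0.26 and 0.58. Without ELA input replicate 1 both passed it, at 0.37 and 0.89 (adjusted p 0.02 and 0.00047). Neither of the COG subunits Cog5 and Cog6 passed it, at 0.37 and 0.24.

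Of the 5 genes for entry into the ER, 4 lost ribosome enrichment (background 27.7%) and none gained it. Srp9, Srp19 and Ssr3 have under 1000 coding bases, a class in which 62.6% of all genes lost it, and 2 of the losses, those of Srp9 and Ssr3, did not hold with the correction for coding length and GC content (-0.28 and -0.13). Srp19 (chr18:34331121-34336599), an RNA-binding protein that helps the particle assemble, had 808 and 800.4 in ES input, 568 and 629 in ES Rpl10a-IP, 653 and 710.2 in ELA input and 180.4 and 180.3 in ELA Rpl10a-IP. Srp9 (chr1:182124737-182132415), part of the domain that slows the ribosome during targeting, had 708 and 722 in ES input, 575 and 599 in ES Rpl10a-IP, 707 and 604 in ELA input and 239.8 and 216 in ELA Rpl10a-IP. For Ssr3, a subunit of the translocon-associated complex (chr3:65379657-65392553), the values were 2147 and 2400.0 in ES input, 2189.8 and 2225 in ES Rpl10a-IP, 3398 and 4134 in ELA input and 1772 and 1771 in ELA Rpl10a-IP. Total RNA of Srp19 and Srp9 did not pass the threshold and that of Ssr3 rose, and in each of the 3 genes both ELA pull-down libraries lay below every other library. The changes in ribosome enrichment were -1.48 ± 0.17, -1.24 ± 0.17 and -1.04 ± 0.16, with adjusted p of 8.9e-09, 3.4e-07 and 9.7e-07. Srp72, a scaffold protein of the particle, lost 0.66, and Srpr, the receptor subunit in the ER membrane, had -0.02 (adjusted p 0.92).

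The 7 SNAREs, of which 6 rose in total RNA, went the other way in ribosome enrichment: 5 of 7 lost it and none gained it (median -0.76, background 27.7%). All 7 have under 1000 coding bases, a class in which 62.6% of all genes of the table lost enrichment, and none of the 5 calls held with the correction for coding length and GC content (median -0.03). Vamp3 (chr4:151047305-151057953) had 321 and 411 in ES input, 293 and 316 in ES Rpl10a-IP, 517 and 541 in ELA input and 222 and 196 in ELA Rpl10a-IP. Both its ELA input libraries were above every other library and both its ELA pull-down libraries below, with a change of -1.08 ± 0.19 (adjusted p 1.4e-05). Stx7 lost 0.84, Snap23 0.80 and Stx12 0.76, and Stx3 lost 0.37 close to the threshold (adjusted p 0.048), which it missed without ELA input replicate 1 (0.12). Stx6 and Stx16 had -0.12 and -0.05, and both were already below input in ES, at -0.43 and -0.46. In ELA all 7 were below input, at -0.51 (Stx16) to -1.34 (Vamp3). With the correction Stx3 alone was called below input in ELA (-0.31), and Vamp3 and Stx16 had -0.14 and -0.18.

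**Figure D2:**
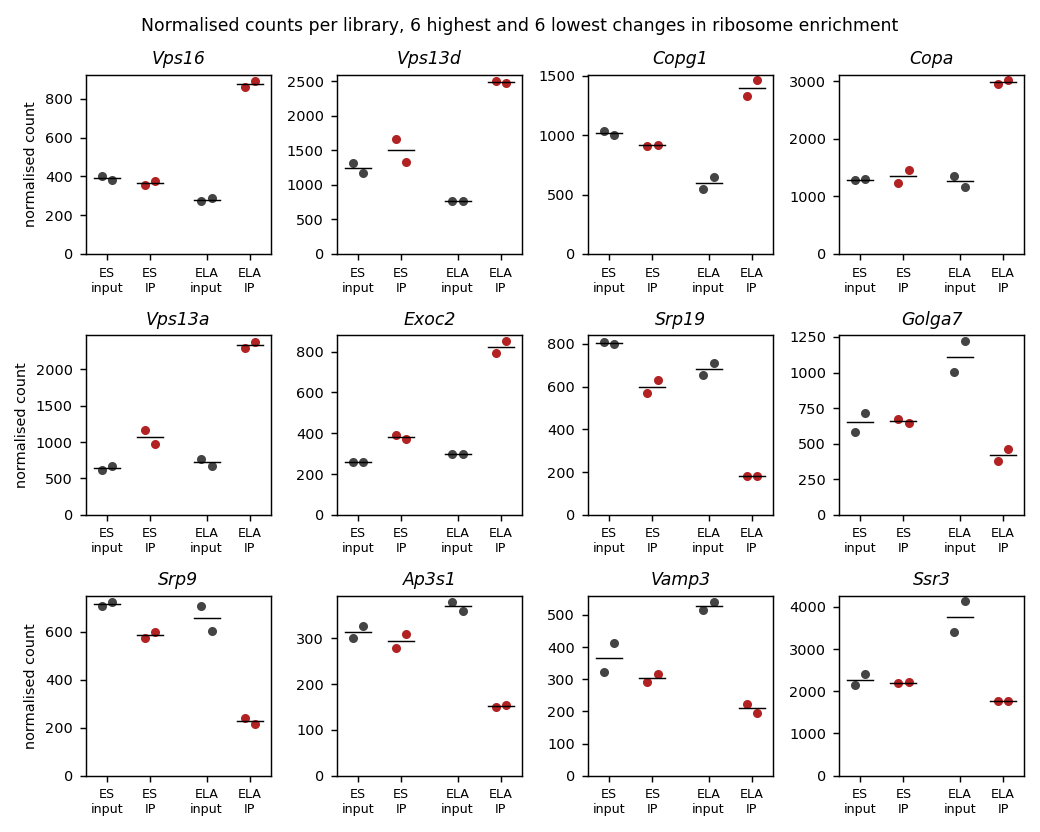
Normalised counts (y axis, from 0) in each of the 8 libraries for the 6 members with the highest and the 6 with the lowest change in ribosome enrichment; black points are input, red points Rpl10a-IP, and each bar is the mean of 2 libraries. In Vps16 the ELA Rpl10a-IP libraries reach 862 and 894 over inputs of 272 and 286, and in Srp19 they lie at 180.4 and 180.3 under inputs of 653 and 710.2.

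Inside several complexes the subunits parted. Clathrin is built of heavy chains (Cltc) that form the lattice and light chains (Clta) that regulate it. Cltc had 6373 and 6411 in ES input, 8111 and 8423 in ES Rpl10a-IP, 4268 and 4950.2 in ELA input and 8043 and 7662 in ELA Rpl10a-IP, and Clta had 1947 and 1711 in ES input, 1418 and 1573 in ES Rpl10a-IP, 1223 and 1240.2 in ELA input and 534 and 629.9 in ELA Rpl10a-IP. Both inputs were lower in ELA than in ES, the Cltc pull-down changed by -0.07 (adjusted p 0.42) and that of Clta fell by 1.36. The heavy chain thus gained 0.40 ± 0.14 in ribosome enrichment (adjusted p 0.017, and 0.053 without ELA input replicate 1) and the light chain lost 0.80 ± 0.16 (adjusted p 0.00011). The retromer subunit Vps35, its long scaffold, gained 0.62 ± 0.15, and Vps26a, the arrestin-like subunit at its tip, lost 0.43 ± 0.16. Among the adaptors Ap3s1 (chr18:46741694-46790826), the small chain of the endosomal AP-3 complex, had 300.5 and 328 in ES input, 279 and 309 in ES Rpl10a-IP, 381 and 360.4 in ELA input and 149 and 154 in ELA Rpl10a-IP. Its ELA pull-down libraries were below every other library, a change of -1.19 ± 0.19, where the large AP-3 chain Ap3b1 had 0.26 (adjusted p 0.14) and the medium chain Ap3m1 -0.13 (0.52). The large chains Ap4e1, Ap2a1 and Ap2a2 of AP-4 and AP-2 gained 0.81, 0.66 and 0.45, and Ap1g1 and Ap2m1 missed the threshold at 0.29 and 0.36. Without ELA input replicate 1 Ap3b1 passed it upward (0.33). With the correction for coding length and GC content, Cltc had -0.26 beside -0.42 for Clta, Ap3s1 had -0.24 beside -0.22 for Ap3b1, and Vps26a had -0.03, so that of these genes only Clta was still called, while Vps35 kept its gain at 0.51.

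The golgins, coiled-coil tethers that stand out from Golgi membranes and catch passing vesicles, differed among themselves. Golga7 (chr8:23241326-23258903), a small partner of a palmitoyltransferase that shares the name but not the coiled-coil build, had 583 and 719 in ES input, 673 and 647 in ES Rpl10a-IP, 1006 and 1219 in ELA input and 378 and 463 in ELA Rpl10a-IP. Its ELA input libraries were the highest and its ELA pull-down libraries the lowest of the 8, a change of -1.43 ± 0.18 (adjusted p 6.5e-08). Golgb1, the giant golgin, gained 0.47 (adjusted p 0.021), and Golga2, Golga3, Golga4 and Golga5 lay between -0.11 and 0.16 without passing the threshold. Without ELA input replicate 1 Golga4 passed it at 0.33, and with the coding-length and GC correction Golgb1 was called in the opposite direction (-0.62, adjusted p 0.002) and Golga4 had -0.74. Among 8 sorting nexins, which bind endosomal lipids, Snx27 gained 0.55 and Snx2, Snx10 and Snx6 lost 0.77, 0.66 and 0.50, with Snx1, Snx4, Snx5 and Snx18 between -0.31 and 0.31 and short of the threshold, which Snx4 passed without ELA input replicate 1 (-0.44). The cargo receptors Lman1 and Tmed9 lost 0.53 and 0.63, while Tmed8 and Tmed10 had -0.02 and 0.03. Picalm and the ESCRT subunits Vps37a and Vps4b lost 0.52, 0.53 and 0.38, and Dnm1l, a dynamin that divides mitochondria and peroxisomes, gained 0.41.

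The VPS13 proteins, long bridges that move lipids between membranes, have coding sequences of 13155 (Vps13d, the longest of the 75 genes) and 9501 bases (Vps13a). Vps13d (chr4:144871045-145195037) had 1311 and 1174 in ES input, 1668 and 1335 in ES Rpl10a-IP, 761 and 763 in ELA input and 2509 and 2467 in ELA Rpl10a-IP. Vps13a (chr19:16615366-16781071) had 615 and 668 in ES input, 1163 and 978 in ES Rpl10a-IP, 761 and 678 in ELA input and 2289.6 and 2380.1 in ELA Rpl10a-IP. In both genes every ELA pull-down library was the highest by a wide margin, and input fell for Vps13d only. Ribosome enrichment changed by 1.44 ± 0.16 and 0.97 ± 0.16 (adjusted p 6.7e-09 and 7.6e-06), and Vps13a was also the most enriched member in ES, at 0.73 ± 0.09. With the correction for coding length and GC content neither change was called (0.19 and 0.04), the ES value of Vps13a was 0.35, and the changes in ribosome-bound RNA turned to -0.63 and -0.12.

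Total and ribosome-bound RNA come from separate libraries, so their changes can be set side by side. A fall in total RNA with a rise in ribosome-bound RNA was called for 6 of 75 genes (8%, background 4.49%), which were Copb2, Copg1, Vps54, Vps16, Vps13d and Sec23ip. The opposite, a rise in total RNA with a fall on ribosomes, was called for 6 others (8%, background 4.84%), which were Ssr3, Snap23, Vamp3, Lman1, Golga7 and Exoc5. Both measures rose for 13 members (24.8% of all genes) and both fell for 14 (26.2%). With the correction for coding length and GC content 1 member of each opposite kind was left (1.33%, against 3.15% and 3.57% of all genes). Over the 75 genes Pearson's r between the changes was 0.40 (Spearman's rho 0.41), and over all 3160 genes it was 0.75 (0.67). These correlations are across genes, which are not independent replicates. The members' total RNA changes also spread less, with a standard deviation of 0.52 against 0.85 over all genes. The gap between the measures is the change in ribosome enrichment, and its standard deviation was 0.71 over the members and 0.70 over all genes. The lower r thus does not show a wider gap in the members. Vps16 fell by 0.49 in total RNA and rose by 1.27 on ribosomes, and Golga7 rose by 0.77 and fell by 0.66. Lman1, a lectin that ferries glycoproteins out of the ER, missed the total RNA threshold without ELA input replicate 1 (adjusted p 0.099).

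**Figure D3:**
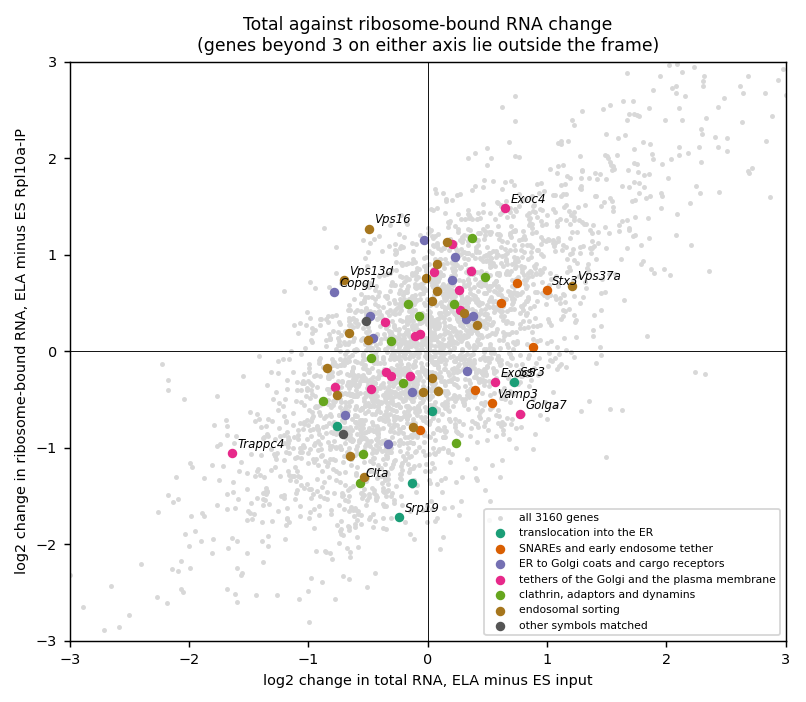
Log2 change from ES to ELA in total RNA (x axis) against that in ribosome-bound RNA (y axis); grey points are all 3160 genes and coloured points the 75 members by role class. Vps16, Vps13d and Copg1 lie at upper left and Golga7, Vamp3 and Ssr3 at lower right, and the members span a narrower range on both axes than the grey points do.

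The change in ribosome enrichment of the trafficking genes followed the length of their coding sequence. Coding, transcript and 3′ untranslated lengths were taken from GENCODE vM1, from the transcript with the longest coding sequence of each symbol, and all 75 members had one. Of the 19 members with under 1000 coding bases none gained enrichment and 13 lost it. Of 28 with 1000 to under 2500 bases 6 gained and 9 lost, and of 28 with 2500 or more 22 gained and none lost. All genes of the table did likewise, with 3.28% gaining and 62.6% losing in the shortest class, 20.0% and 24.7% in the middle class, and 62.3% and 4.99% in the longest. Over the 75 genes Spearman's rho with coding length was 0.73 (0.71 without the VPS13 genes, 0.64 over all genes with a length), with transcript length 0.49, and with the length of the 3′ untranslated region -0.18. These correlations are descriptions across genes measured in the same libraries. The longest subunit lay above the shortest in 14 of 17 symbol groups with at least 2 members (Sec14l1 and Sec23ip counted as 1 group), and the exceptions were the Tmed and Lman receptors, TRAPP, and HOPS with CORVET. The relation was already present in ES pull-down against input at rho 0.33 and stronger in ELA at 0.75, and for total RNA rho was -0.11. In ES the members' enrichment went more with the GC content of the transcript, at rho -0.48 (-0.42 over all genes), and the change in ribosome enrichment had rho 0.29 with it (0.14). For the change in ribosome-bound RNA, which compares Rpl10a-IP libraries only, rho with coding length was 0.64 (0.63 over all genes). The ELA input libraries were also the shallowest, and their part in the relation was not tested.

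**Figure D4:**
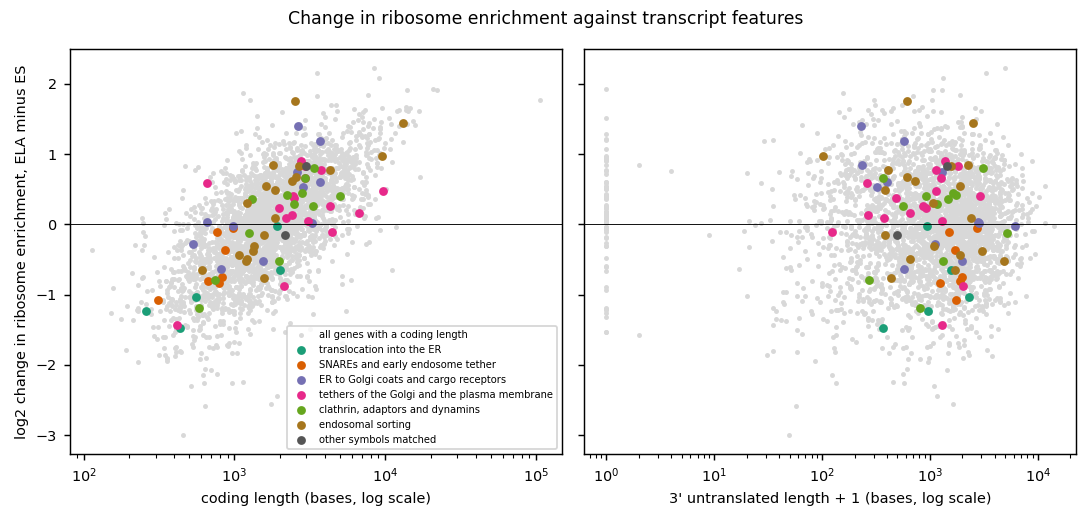
Log2 change in ribosome enrichment (y axis) against coding length (left) and 3′ untranslated length plus 1 (right), both on log axes in bases; grey points are all genes with a coding length and coloured points the 75 members by role class. The points climb with coding length (members' rho 0.73) and not with the 3′ untranslated length (-0.18).

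Not every family shift went away when each library was first corrected for coding length and GC content together, a step chosen after the relation was seen. With it 21 members gained and 12 lost ribosome enrichment (background 20.2% and 21.8%), and the standard deviation over the members went from 0.71 to 0.46. COPI kept 4 of its 5 gains, with a median of 0.57, where Copg1 had 1.02, Copa 0.62, Copb2 0.58 and Copg2 0.56. HOPS and CORVET kept 4 of 6 (median 0.46), led by Vps16 at 1.40 and Vps33a at 0.72. The SNAREs kept none of their 5 losses (median -0.03), and neither VPS13 gene passed, at 0.19 and 0.04. Ssr3 went to -0.13 and Srp9 to -0.28, both short of the threshold, whereas Srp19 and Srp72 stayed below at -0.57 and -0.71. Of the golgins 4 of 6 were called lower after the step, with a median of -0.63. Exoc5 stood at -0.91 after it, against -0.88 before. Passing the threshold after the step, where they had not before, were Trappc4 (1.03), Tmed10 (0.65), Snx5 (0.55) and Ap2m1 (0.41) upward and Golga3 (-0.79), Golga4 (-0.74) and Sec14l1 (-0.41) downward. Short of it after the step, besides those above, were Copb1 (0.30), Sec31a (0.04), Trappc10 (0.19), Exoc6b (0.15), Ap2a2 (0.05), Vps8 (0.11), Vps33b (0.31), Snx6 (-0.22), Snx10 (0.17), Tmed9 (-0.31), Vps4b (-0.11) and Vps37a (-0.12). Of the genes whose total and ribosome-bound RNA went opposite ways, 1 of each kind was left, Vps16 and Exoc5. With a replicate block and a correction for transcript length and GC content instead, 5 fell in total RNA and rose on ribosomes (Copb2, Copg1, Ap2a1, Vps35 and Vps16) and none did the opposite, so that Exoc5 was not called there. In that setting 25 members gained and 16 lost ribosome enrichment (background 28% and 26.1%). Of the 19 members with under 1000 coding bases 10 lost it there, against 3 with the coding-length and GC step. Over the 5 comparisons the coding-length and GC step kept, in the same direction, 40 of 47 calls in total RNA (lost for Snap23, Sec24a, Tmed9, Golga4, Golgb1, Clta and Ap4e1), 38 of 65 in ribosome-bound RNA, 22 of 35 in ES enrichment, 37 of 59 in ELA enrichment and 25 of 50 in the change of enrichment.

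**Figure D5:**
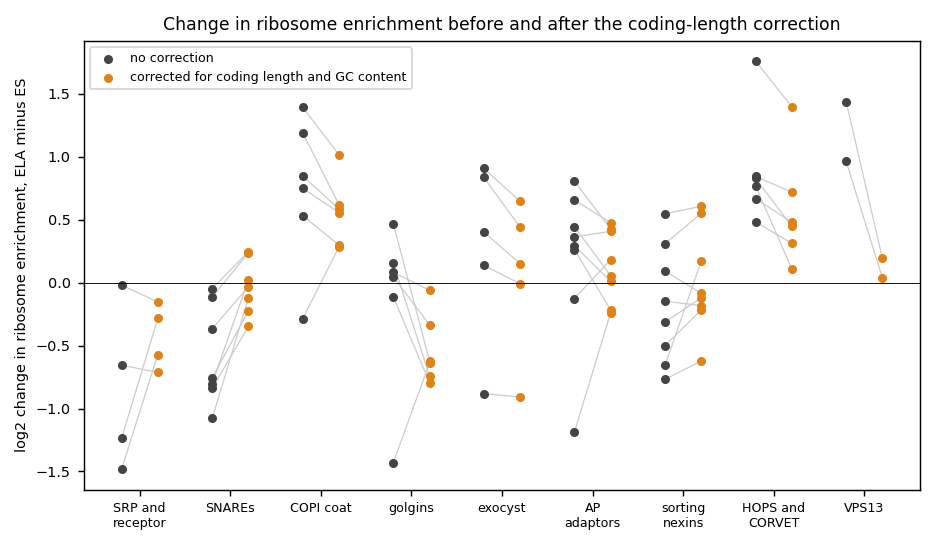
Log2 change in ribosome enrichment (y axis) of each member in 9 families before (black) and after (orange) correction of each library for coding length and GC content, with lines joining the same gene. SNARE and VPS13 genes end between -0.35 and 0.25, all 6 COPI genes (Copz1 from -0.29 before it) and all 6 HOPS and CORVET genes end above 0, and 5 golgins end at or below -0.34.

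Genes that work with these families but fall outside the stems were set beside them, from a list of 158 symbols of which 67 are in the table. Of these 25 rose and 20 fell in total RNA (37.3% and 29.9%, background 34.5% and 35.8%), and 17 gained and 19 lost ribosome enrichment (25.4% and 28.4%, background 28.4% and 27.7%), so that the shares were near those of all genes. Sort1, a receptor that sorts cargo from the Golgi to endosomes, had the highest total RNA change at 2.41, followed by Stxbp5, a syntaxin-binding protein, at 2.11 and the endocytic receptor Lrp1 at 1.65. Necap1, a partner of AP-2, M6pr, the mannose 6-phosphate receptor, and Lamp1, a lysosome membrane protein, were the lowest at -1.17, -1.06 and -0.92. In ribosome enrichment Lrp2, Lrp1 and Nbas, with coding sequences of 13983, 13638 and 7071 bases, gained 1.91, 1.63 and 1.60. Bet1, an ER to Golgi SNARE, Rab5a, the GTPase of early endosomes, and Arf6, a GTPase of the cell surface, lost 1.90, 1.60 and 1.33, with coding sequences of 357, 648 and 528 bases. Among 18 endosome and lysosome genes of that list 2 gained and 9 lost enrichment, and among 8 receptors and cargo proteins 4 gained and none lost, against the same background of 28.4% and 27.7%.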

How the data were processed

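RNA-seq libraries of total and ribosome-bound RNA from ES cells and ELA were read on an Illumina instrument after ribosomal RNA depletion. The authors mapped reads with TopHat2 to the mm10 transcriptome, excluding repeats, counted them per gene with htseq-count (strand not given in the sources used here), divided the counts by DESeq2 size factors, and deposited the resulting signal (normalised counts, not raw reads) for genes with a mean count of at least 50 in ES or ELA and a standard deviation of the ratio of at most 20% of its mean. The deposited table thus holds genes picked for small replicate spread, so that p-values are too small and counts of called genes are upper figures. The paper states the 20% limit for the standard deviation of the counts, not of the ratio. The other 26 columns of the table (means, standard deviations, ratios and fold changes) were not used.

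Each value was a whole multiple of 1 step per library (100% of values, tolerance 0.01), which gave the reads, and these were rescaled with trimmed mean of M-values factors over all 3160 genes. Tests used limma 3.58.1 in R 4.3.3 (lmFit, eBayes with trend) on log2(normalised count + 1), with 1 coefficient per group and Benjamini-Hochberg adjustment over all 3160 genes. A fold change on this scale understates that of low genes. All 8 libraries entered the ELA, total RNA and interaction tests. ELA input replicate 1 was left out of the ES enrichment and ribosome-bound tests (7 libraries). There limma gave each gene the spread of the trend at its level, and not that of its own replicates. The model was tested on simulated data. Coordinates are RefSeq GRCm38.p6. Lengths and GC content came from GENCODE vM1, matched by symbol for 3114 genes.

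Members were named by rule: the 8 highest and 8 lowest called changes per comparison, all members of families of 10 or fewer, and values in every library for the 6 highest and 6 lowest changes in ribosome enrichment and the 4 highest and 4 lowest total RNA changes. Values per library of Clta, Cltc, Vps35, Exoc4, Exoc5 and Snx2 were added after they were seen. Of a hand-written list of partner genes, the 3 highest and 3 lowest past the threshold were named for total RNA and for the change in ribosome enrichment. The members and lists were chosen with earlier results of these data known. Alternatives covered scaling, pseudocount (5), a filter (mean of 200), left-out libraries, a replicate block and corrections for length and GC content (loess, span 0.5).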

Additional observations from a re-analysis of the deposited data

Results flagged for a closer look

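In 2 members the ribosome enrichment was called in opposite directions at the stages, and the test of the difference passed the threshold. The share of all genes with this pattern was not counted, so the 2 are not read against a background. Exoc5 was above input in ES (0.27) and below it in ELA (-0.61), a difference of -0.88. Snx2 was above input in ES (0.42) and below it in ELA (-0.35), a difference of -0.77. Exoc5 had normalised counts of 723 and 815 in ES input, 948 and 904 in ES Rpl10a-IP, 1169 and 1102 in ELA input, and 719 and 765 in ELA Rpl10a-IP, and the fractions did not overlap at either stage. Snx2, a retromer-associated sorting nexin, had 1123 and 1180.4 in ES input, 1606 and 1478 in ES Rpl10a-IP, 761 and 827 in ELA input, and 573 and 677 in ELA Rpl10a-IP, again without overlap. ELA input held 43 and 104 reads of Exoc5 and 28 and 78 of Snx2. With the coding-length and GC correction the differences were -0.91 and -0.62. The ES enrichment of Exoc5 missed the threshold with all 8 libraries (adjusted p 0.079 in limma) and with that correction (0.07, adjusted p 0.47), so its opposite calls did not hold there, whereas Snx2 was still called in both directions (0.29 and -0.33 with the correction).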

How the results depend on the processing

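Of 134 gene results named by rule, 1640 values under alternatives without a length correction held their direction, 95 of them short of the threshold. Of the counts of members, those for ribosome enrichment in ES moved most: 10 lower became 6 with 8 libraries and 5 to 10 with 1 library left out (5 without ES Rpl10a-IP replicate 1, 6 without replicate 2), and 25 higher became 16 with the coding-length and GC correction. The 20 total RNA rises became 13 with the deposited size factors and 12 to 22 with 1 library left out (12 without ES input replicate 1). The 22 losses of ribosome enrichment became 12 with the coding-length and GC correction. With that correction 14 of the 134 results changed direction and 33 more fell short of the threshold, and with the replicate block plus transcript length and GC correction 2 and 24 did. In ribosome-bound RNA these were Ssr3 (0.42), Snap23 (0.20), Vamp3 (0.64), Golga7 (0.45), Vps54 (-0.31), Vps13a (-0.12), Vps13d (-0.63) and Sec23ip (-0.10). In the change in ribosome enrichment they were Snap23 (0.0217), Golgb1 (-0.62), Cltc (-0.26) and Snx10 (0.17), in ELA enrichment Snap23 (0.00319) and in ES enrichment Srp9 (0.0375). The replicate block with transcript length and GC correction reversed Vps13d on ribosomes (-0.48) and the change in ribosome enrichment of Golgb1 (-0.14). The cause was not tested beyond these corrections. Scaling moved the median of all genes by over 0.1 with total reads in ELA enrichment (from -0.01 to -0.12) and with the deposited size factors in ribosome-bound RNA (from -0.02 to -0.14).

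In the paper's methods the input was a part of each lysate taken before the pull-down, so input and Rpl10a-IP of 1 sample are paired. The main tests did not use this pairing. Replicate numbers, taken from the titles, are shared by the groups. The source names of both input libraries titled replicate 2 read replicate 1, so which libraries form a pair is not certain. Deviations of same-numbered libraries correlated at 0.17 (ES), 0.50 (ELA), 0.15 (input) and -0.02 (Rpl10a-IP). With the replicate block, 13 members were lower in ES and 30 gained ribosome enrichment, and no call among the named results was lost. The edgeR and DESeq2 alternatives were not run, although whole reads could be recovered from the values, so no count model stands beside limma. The deposited size factors were set within each fraction and gave no value for enrichment at 1 stage. Depth limits the ELA input values most.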
